A study of Homo sapiens with 9 samples.

Results

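A set of 38 interferon response and antigen presentation genes was followed by name among 56865 genes with summed counts in 9 RNA sequencing libraries. The members are 4 receptor chains and kinases, 7 STAT and IRF factors, 19 interferon-inducible genes and 8 genes of the class I machinery, and 36 of them passed the filter on low counts. The cells are labelled BxPC3, a human pancreatic adenocarcinoma line, and all 3 groups, the vehicle control included, carry the labelled genotype p53Y220C/-, so no group has wild-type p53. There were 3 libraries each for DMSO (vehicle), MS172 and PK9328, a compound known from the literature to bind the mutant p53 protein. The treatment protocol gives 5 µM for 6 h but names PK9328 and MS78, whereas the titles name MS172, so the dose and time of MS172 rest on a text with another compound name. The design asks how expression differs between DMSO and MS172, and the labels do not say whether the libraries came from separate cultures, so p-values measure the spread between these libraries, which may be technical.

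The libraries held 24077353 to 28031886 estimated reads each, and 13914 genes passed the filter and entered the test. Markers that BxPC3 is known for were not all present: of 13 ductal and epithelial markers, 6 did not reach 1 CPM (read counts scaled to a common library size) in any library, among them EPCAM (at most 0.0745 CPM), CDH1 (at most 0.0417 CPM) and KRT7 (at most 0.103 CPM). KRT19 stood at 311 CPM and the mesenchymal gene VIM at 9391 CPM with DMSO. SMAD4, a gene recorded as deleted in BxPC3, was read at 51.5 to 64.1 CPM in all 9 libraries, a check added after its values were seen. The libraries therefore go against the labelled line, and the name is used here only as the label. Summed marker levels also moved with the groups. The ductal list summed to 2170 to 2340 CPM with DMSO, 2630 to 2790 with MS172 and 2020 to 2100 with PK9328. The 10 mesenchymal markers summed to 11800 to 12000, 12400 to 12900 and 9990 to 10300, and most of that sum with DMSO was VIM. Single markers did not all follow the sums. With MS172 against DMSO, 5 of 7 tested ductal markers were higher and 1 lower (edgeR adjusted p under 0.05). Of 7 tested mesenchymal markers, VIM alone was called, as higher, and 3 had a negative fold change. Among all genes 17.9% were higher and 17.2% lower. Leukocyte markers (15 genes) summed to 4.04 to 5.69 CPM in any library, with PTPRC at most 0.1101 CPM and CD3E, CD3D, MS4A1 and NKG7 at 0 reads. Of the 15, 12 stayed under 1 CPM in every library and 4 passed the filter, among them CD8A (at most 1.88 CPM) and CD4 (at most 0.718 CPM). The part of these shifts in the results below was not tested, and in such bulk samples fewer cells of a type and less RNA per cell cannot be told apart.

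Type I interferon binds the receptor chains IFNAR1 and IFNAR2, and interferon gamma binds IFNGR1 and IFNGR2. The kinases JAK1, TYK2 and JAK2 on those chains phosphorylate STAT proteins, and STAT2 acts with IRF9 at the interferon-stimulated response element (ISRE) of inducible genes, while STAT dimers bind the gamma-activated sequence (GAS). Many inducible proteins block viral RNA or sense it, and the same signals raise genes that load peptides onto HLA class I molecules: TAP1 and TAP2 form the peptide pump of the endoplasmic reticulum, tapasin (TAPBP) holds the empty class I molecule beside it, and beta-2 microglobulin (B2M) is the light chain. Many cells hold a low constant level of these genes without added interferon.

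The promoter stretches of 7 members are shown because they let the ISRE letters of peptide loading genes be read beside those of inducible genes. The 250 bases before each RefSeq start on GRCh38.p14 were searched on both strands for the ISRE letters GAAANNGAA, which mark the capitals, and the stretches are 30 bases read 5′ to 3′ on the gene's strand. MX1, IFIT5, TAPBP and TAP1 were the 4 called members with the largest fold change in any comparison among those with a promoter in the table used, and IFIT1, TAP2 and B2M were added after their values were seen. Matches on the other strand read as the reverse complement.
MX1, chr21:41431845-41431874, plus strand: gtcactctgtTTCTCTTTCcgtgaataaaa
IFIT1, chr10:89392504-89392533, plus strand: tagtTTCACTTTCccctTTCGGTTTCccta
IFIT5, chr10:89414514-89414543, plus strand: tctattaagtTTCGGTTTCtgaagcttacg
TAP1, chr6:32853815-32853844, minus strand: ggccgctTTCGATTTCGCTTTCccctaaat
TAP2, chr6:32838778-32838807, minus strand: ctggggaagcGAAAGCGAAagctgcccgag
TAPBP, chr6:33314079-33314108, minus strand: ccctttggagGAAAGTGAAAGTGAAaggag
B2M, chr15:44711366-44711395, plus strand: actctaaGAAAAGGAAACTGAAaacgggaa

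The letters occur 2 times in the stretches of IFIT1, TAP1, TAPBP and B2M, where the matches of TAP1, TAPBP and B2M share bases, and 1 time in those of MX1, IFIT5 and TAP2. The table used is a partial copy of RefSeq with 29 of the 38 members, of which 16 held the ISRE letters in at least 1 window, and 19 of their 39 windows did, against 6.88% of all 35116 windows. The GAS letters TTCNNNGAA were in 9 of the 39 windows, for 8 members, against 6.57% of all windows. Both stood together in 4 member windows, of BST2, IFI27 and MX1, matches that share bases included. The promoters of IRF2, IRF3, IRF7, IFIT2, MX2, OAS2, OASL, HLA-E and NLRC5 were not analysed here. A match describes the letters only and does not show that a factor was bound.

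With DMSO the level per length, as summed TPM (the transcript level scaled for length and library total), spanned the members from B2M at 763 TPM ± 10.6 to IRF7 at 0.0425 TPM (SD, n = 3). B2M was followed by HLA-E at 118 TPM ± 0.615, IRF3, a factor activated by nucleic acid sensing, at 94.2 TPM, HLA-B at 89.1 TPM and HLA-C at 79.0 TPM. HLA-B and IRF3 overlapped in their libraries, and 22 members overlapped the next higher member, so much of the order below the top is not resolved. The highest inducible genes were ISG15, a ubiquitin-like protein, at 46.9 TPM, and IFIT1 at 37.0 TPM. The oligoadenylate synthetases OAS1 (0.693 TPM), OAS3 (0.407 TPM) and OAS2 (0.278 TPM) and the GTPase MX1 (0.594 TPM) were at the lower end. The 4 members under 1 CPM in every library were OAS1, OAS2, IRF7 and IFI27. IRF7, at most 0.147 CPM in any library, and IFI27, at most 0.0834 CPM, did not pass the filter and have no test.

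**Figure D1:**
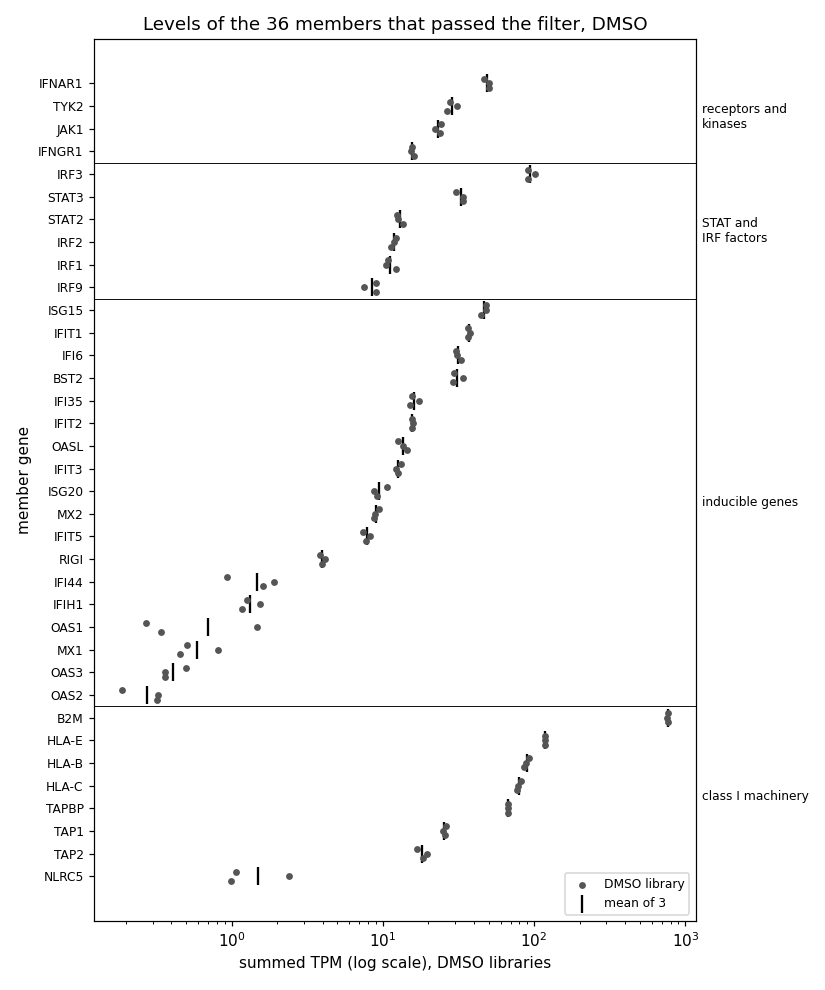
Summed TPM (log axis) of the 36 members that passed the filter in the 3 DMSO libraries (points) with their mean (bars), grouped by role. B2M stands apart at 763 TPM, and OAS1, OAS2, OAS3 and MX1 lie under 1 TPM on average.

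Summed TPM is used only to compare genes within DMSO, because over all tested genes the median log2 ratio of mean TPM was -0.18 for MS172 against DMSO and 0.05 for PK9328 against DMSO. Comparisons between groups use counts with TMM scaling, shown as CPM, for which the median log2 change of all genes was -0.02 and 0.00.

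With MS172, 11 of the 36 tested members had an adjusted p under 0.05 against DMSO (edgeR quasi-likelihood test, Benjamini-Hochberg over all genes), where 35.1% of all genes did. The peptide loading genes TAP1, TAP2, TAPBP and B2M and the factors IRF2 and IRF3 rose, and the inducible genes IFIT1, IFIT2, IFIT5, RIGI and MX1 fell. These are 6 rises, beside 17.9% of all genes higher, and 5 falls, beside 17.2% lower, so the 30.6% of tested members that changed was no larger a share than that of all genes. RLE size factors in place of TMM gave 10 higher and 4 lower, and DESeq2 gave 8 and 4. With PK9328, 8 of 36 members (22.2%) changed against DMSO, beside 15.5% of all genes: IRF9 and IFIT5 rose (7.98% of all genes higher) and IFIT1, IFIT2, IFIT3, OASL, TAP2 and TAPBP fell (7.48% lower). Both comparisons share the DMSO libraries.

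Directly between the compounds, 16 of 36 members (44.4%) differed, beside 47.7% of all genes. Levels were higher with MS172 than with PK9328 for 12 members (23.3% of all genes) and lower for 4 (24.4% of all genes). The median log2 change over the 36 members was -0.03 with MS172 and -0.03 with PK9328 against DMSO, and 0.09 between the compounds, against medians of -0.02, 0.00 and -0.03 over all genes. Fragment length, read from the effective lengths, was 249.77 to 263.23 bases in the PK9328 libraries, under the 274.36 to 293.09 bases of all the other libraries. With fragment length as a covariate, 1 of the 8 members, IFIT1, kept its call with PK9328 against DMSO, and 9 of the 16 kept theirs between the compounds.

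**Figure D2:**
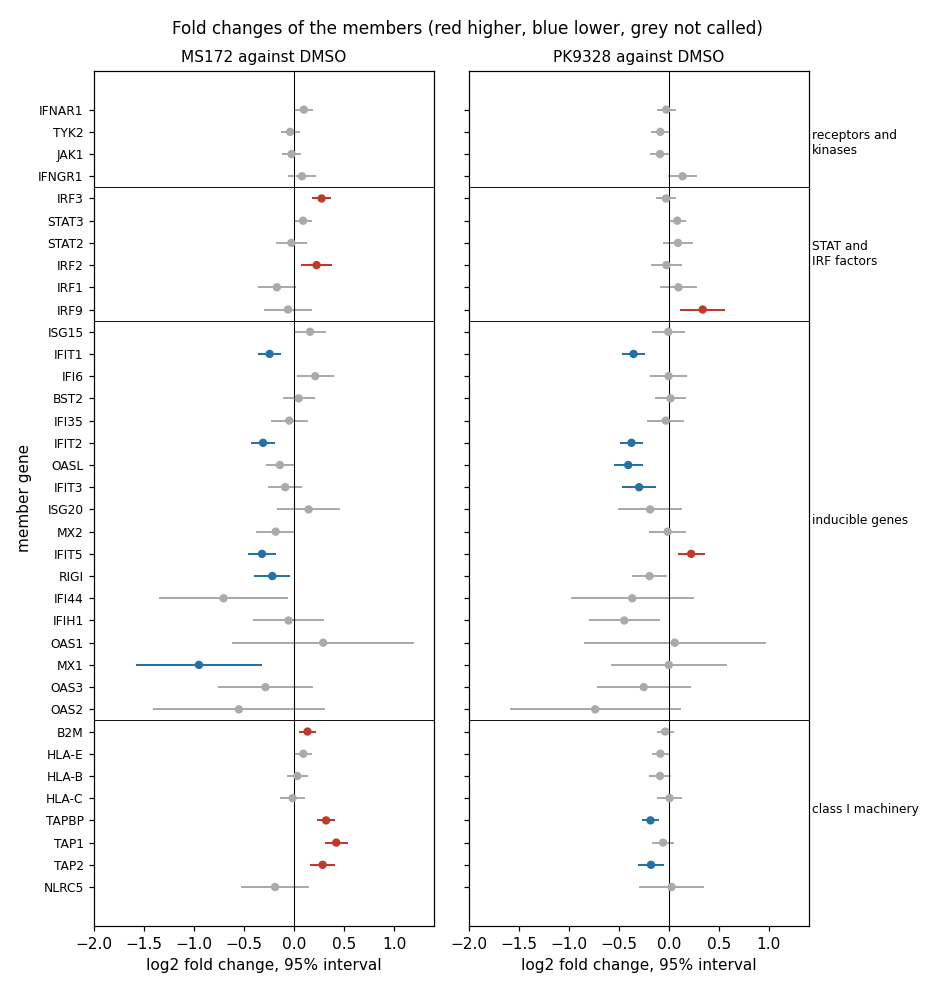
Log2 fold change with 95% interval of each tested member, by role, for MS172 and PK9328 against DMSO (edgeR, 3 libraries per group). Red marks a rise and blue a fall past the threshold: TAP1, TAP2, TAPBP and B2M are red with MS172, and IFIT1 and IFIT2 are blue with both compounds.

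Of the 8 class I genes, 4 rose with MS172 (beside 17.9% of all genes), 2 fell with PK9328 (7.48% of all genes), and 6 were higher with MS172 than with PK9328 (23.3% of all genes). The list's median log2 change was 0.11, -0.07 and 0.17 in these comparisons.

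TAP1 (ENSG00000168394, chr6:32845209-32853978, minus strand), the first subunit of the peptide pump, read 58.4, 54.1 and 60.8 CPM with DMSO, 80.5, 76.8 and 74.7 with MS172, and 52.3, 57.7 and 56.4 with PK9328. All MS172 libraries lay above every other library, and DMSO and PK9328 overlapped. On the log2 scale TAP1 rose with MS172 by 0.42 ± 0.05 (SE, edgeR adjusted p = 1.28e-07), had -0.06 ± 0.05 with PK9328 (adjusted p = 0.505), and was 0.48 ± 0.05 higher with MS172 than with PK9328 (adjusted p = 4.93e-09). TAP1 overlaps PSMB9 on the opposite strand, and the sources used here do not say whether the quantification used strand. PSMB9 itself averaged 3.11 to 4.17 CPM in the groups.

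TAP2 (ENSG00000204267, chr6:32821833-32838780, minus strand), the second pump subunit, read 35.9, 38.1 and 37.2 CPM with DMSO, 46.7, 46.6 and 42.3 with MS172, and 31.2, 31.8 and 35.4 with PK9328. No libraries of different groups overlapped, with PK9328 lowest and MS172 highest. The log2 fold change was 0.29 ± 0.06 with MS172 (SE, edgeR adjusted p = 0.000238), -0.18 ± 0.06 with PK9328 (adjusted p = 0.0338) and 0.46 ± 0.06 between the compounds (adjusted p = 1.04e-07). With length-scaled TPM the difference between the compounds was lost (log2 0.212, adjusted p = 0.395). The fall with PK9328 was also not stable: its sign turned with counts rebuilt from length-scaled TPM (log2 0.517, adjusted p = 0.134), and its adjusted p reached 0.05 or more in 9 of 20 alternatives, among them without any single DMSO library, PK9328 replicate 1 or PK9328 replicate 2. TAP2 reads were split between a transcript of 5684 bases, with 52.2% to 62.7% of them, and one of 2497 bases, with 33.7% to 42.7%.

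TAPBP (ENSG00000231925, chr6:33299694-33314387, minus strand), which encodes tapasin, read 196, 188 and 199 CPM with DMSO, 238, 242 and 248 with MS172, and 164, 177 and 171.9 with PK9328. The 3 groups were again fully apart. TAPBP rose by 0.32 ± 0.04 with MS172 (SE, edgeR adjusted p = 7.75e-08), fell by 0.18 ± 0.04 on the log2 scale with PK9328 (adjusted p = 0.000842), and differed by 0.50 ± 0.04 between the compounds (adjusted p = 3.47e-12). With fragment length as a covariate the adjusted p for PK9328 was 0.421.

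B2M (ENSG00000166710, chr15:44711487-44718877, plus strand) read 294, 293 and 307 CPM with DMSO, 334, 335 and 313 with MS172, and 286, 293 and 293 with PK9328. The MS172 libraries were highest, and DMSO and PK9328 overlapped. B2M rose by 0.13 ± 0.04 with MS172 (SE, edgeR adjusted p = 0.00445), had -0.04 ± 0.04 with PK9328 (adjusted p = 0.573) and differed by 0.17 ± 0.04 between the compounds (adjusted p = 0.000269). The rise with MS172 was lost with length-scaled TPM (log2 0.017, adjusted p = 0.834) and with an offset for GC content and length (log2 0.059, adjusted p = 0.119), and with that offset B2M passed the threshold with PK9328 (log2 -0.115, adjusted p = 0.004). The difference between the compounds was lost with length-scaled TPM (log2 0.096, adjusted p = 0.135). B2M reads were divided among several transcripts, the one of 1715 bases holding 25.5% to 30.4% with DMSO and 26.8% to 37.6% with MS172.

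HLA-E (ENSG00000204592, chr6:30489467-30494205, plus strand), a nonclassical class I molecule read by natural killer cells, had 224, 217 and 235 CPM with DMSO, 248, 241 and 233 with MS172, and 208, 214 and 215 with PK9328. MS172 and DMSO overlapped, and all PK9328 libraries were lowest. HLA-E had 0.09 ± 0.04 on the log2 scale with MS172 (SE, edgeR adjusted p = 0.0526) and -0.08 ± 0.04 with PK9328 (adjusted p = 0.125), and was 0.18 ± 0.04 higher with MS172 than with PK9328 (adjusted p = 0.000231). HLA-E passed the threshold with MS172 in 7 of 20 alternatives, among them RLE size factors, DESeq2 and without DMSO replicate 3 or MS172 replicate 3, and with PK9328 without DMSO replicate 2.

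HLA-B (ENSG00000234745, chr6:31269491-31357188, minus strand) read 92.0, 90.6 and 102 CPM with DMSO, 101, 99.1 and 91.1 with MS172, and 87.4, 87.3 and 92.8 with PK9328, and every pair of groups overlapped. HLA-B differed by 0.12 ± 0.05 between the compounds (SE, edgeR adjusted p = 0.0377), a call lost in 8 of 20 alternatives, among them without MS172 replicate 1 or 2 and without PK9328 replicate 1 or 2. HLA-C, whose annotated span overlaps that of HLA-B, had -0.02 (95% interval -0.13 to 0.10) with MS172 and 0.01 (-0.11 to 0.12) with PK9328. Reads shared by these near-identical genes were divided by the authors' quantification, so single HLA values are uncertain. NLRC5, a transactivator of class I genes, read 4.69, 4.58 and 3.83 CPM with DMSO, 4.33, 2.75 and 4.38 with MS172, and 4.44, 4.75 and 4.17 with PK9328. Its groups overlapped throughout, with log2 fold changes of -0.19 ± 0.16 (SE, edgeR adjusted p = 0.386) and 0.03 ± 0.16 (adjusted p = 0.937) against DMSO.

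**Figure D3:**
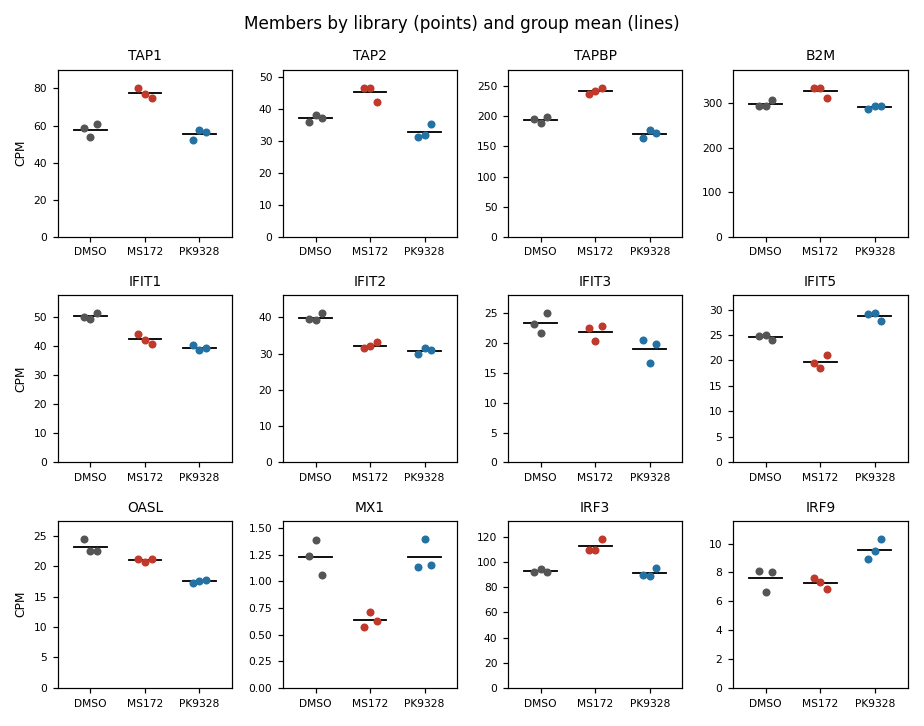
CPM of 12 members in each library (points) with the group mean (lines), linear axes from 0. TAP1, TAP2 and TAPBP are highest with MS172, IFIT1 and IFIT2 are highest with DMSO, and IFIT5 is lowest with MS172 and highest with PK9328.

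Of 18 tested inducible genes, 5 fell with MS172, beside 17.2% of all genes lower. With PK9328, 4 fell and 1 rose, beside 7.48% of all genes lower and 7.98% higher. In any direction, 27.8% of the list was called in each comparison, beside 35.1% and 15.5% of all genes. The median log2 change of the list was -0.16 with MS172 and -0.19 with PK9328, beside -0.02 and 0.00 over all genes, and 13 and 14 of the 18 had a negative fold change. The IFIT genes, a cluster on chromosome 10 whose proteins bind foreign RNA, supplied most of the calls.

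IFIT1 (ENSG00000185745, chr10:89392546-89406486) read 49.96, 49.4 and 51.3 CPM with DMSO, 44.2, 42.0 and 40.8 with MS172, and 40.2, 38.4 and 39.4 with PK9328. DMSO was highest and PK9328 lowest, with no overlap between groups. IFIT1 fell by 0.25 ± 0.05 on the log2 scale with MS172 (SE, edgeR adjusted p = 0.000309) and by 0.35 ± 0.05 with PK9328 (adjusted p = 8.04e-06). Both falls passed the threshold in all 20 alternatives, and the 0.11 ± 0.05 between the compounds did not pass (adjusted p = 0.0828) except with RLE size factors or the offset for GC content and length.

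IFIT2 (ENSG00000119922, chr10:89283694-89309276) read 39.4, 39.2 and 41.2 CPM with DMSO, 31.4, 32.0 and 33.1 with MS172, and 29.8, 31.5 and 31.0 with PK9328. Both compounds lay below DMSO and overlapped each other. IFIT2 fell by 0.31 ± 0.05 on the log2 scale with MS172 (SE, edgeR adjusted p = 3.82e-05) and by 0.37 ± 0.05 with PK9328 (adjusted p = 8.35e-06), and the compounds differed by 0.06 (95% interval -0.05 to 0.17, adjusted p = 0.363). With fragment length as a covariate, IFIT2 had an adjusted p of 0.123 with PK9328.

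IFIT3 (ENSG00000119917, chr10:89327894-89340971), a partner of IFIT1, read 23.3, 21.8 and 25.1 CPM with DMSO, 22.5, 20.4 and 22.9 with MS172, and 20.6, 16.6 and 19.9 with PK9328. PK9328 was below all DMSO libraries and MS172 overlapped both groups. IFIT3 fell by 0.30 ± 0.08 on the log2 scale with PK9328 (SE, edgeR adjusted p = 0.00773), had -0.09 ± 0.08 with MS172 (adjusted p = 0.391), and was 0.21 ± 0.08 higher with MS172 than with PK9328 (adjusted p = 0.0298). The fall with PK9328 was lost without DMSO replicate 3, without PK9328 replicate 2, with length-scaled TPM and with fragment length as a covariate (adjusted p up to 0.144). The difference between the compounds was lost without MS172 replicate 1, MS172 replicate 3 or PK9328 replicate 2, with length-scaled TPM and with the covariate (adjusted p up to 0.261).

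IFIT5 (ENSG00000152778, chr10:89414586-89421001) fell with MS172, as IFIT1 and IFIT2 did, but moved the other way from its neighbours with PK9328. It read 24.7, 25.01 and 24.05 CPM with DMSO, 19.5, 18.5 and 21.1 with MS172, and 29.2, 29.3 and 27.7 with PK9328. The 3 groups did not overlap, MS172 lying below DMSO and PK9328 above it. IFIT5 fell by 0.32 ± 0.07 on the log2 scale with MS172 (SE, edgeR adjusted p = 0.000282), rose by 0.22 ± 0.06 with PK9328 (adjusted p = 0.0121) and fell by 0.55 ± 0.06 with MS172 relative to PK9328 (adjusted p = 3.89e-08). The rise with PK9328 was lost without DMSO replicate 3 and without PK9328 replicate 2, with length-scaled TPM and with fragment length as a covariate, with adjusted p up to 0.321.

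OASL, an oligoadenylate synthetase-like protein that enhances RNA sensing, read 24.5, 22.5 and 22.5 CPM with DMSO, 21.2, 20.7 and 21.1 with MS172, and 17.2, 17.6 and 17.7 with PK9328. The groups stood in that order without overlap. OASL fell by 0.41 ± 0.07 on the log2 scale with PK9328 (SE, edgeR adjusted p = 5.24e-05), had -0.14 ± 0.07 with MS172 (adjusted p = 0.0916), and was 0.26 ± 0.07 higher with MS172 than with PK9328 (adjusted p = 0.00171). With fragment length as a covariate the adjusted p of OASL for PK9328 was 0.172, and the difference between the compounds was lost with that covariate and with length-scaled TPM (adjusted p up to 0.22).

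MX1 (ENSG00000157601, chr21:41420304-41459214), an antiviral GTPase, was scarce, with 246 estimated reads over all libraries. It read 1.24, 1.39 and 1.06 CPM with DMSO, 0.571, 0.710 and 0.626 with MS172, and 1.14, 1.402 and 1.15 with PK9328. MS172 lay below both other groups, which overlapped. MX1 fell by 0.95 ± 0.30 on the log2 scale with MS172 against DMSO (SE, edgeR adjusted p = 0.0146) and by 0.95 ± 0.30 relative to PK9328 (adjusted p = 0.0101), while PK9328 against DMSO had 0.00 (95% interval -0.57 to 0.57). The fall of MX1 against DMSO was lost without DMSO replicate 2 and with length-scaled TPM (adjusted p up to 0.162), and the fall relative to PK9328 without PK9328 replicate 2, with length-scaled TPM and with fragment length as a covariate (adjusted p up to 0.284). MX2, its nuclear relative, averaged 13.9 CPM with DMSO and had -0.18 (95% interval -0.37 to -0.00, adjusted p = 0.112) with MS172.

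RIGI, the RNA sensor listed as DDX58 in the annotation, read 13.7, 13.7 and 13.6 CPM with DMSO, 12.04, 11.1 and 12.1 with MS172, and 11.7, 12.4 and 11.7 with PK9328. Both compounds lay below DMSO. RIGI fell by 0.22 ± 0.08 on the log2 scale with MS172 (SE, edgeR adjusted p = 0.0408), a call lost in 13 of 20 alternatives, among them each DMSO and each MS172 library left out in turn, with adjusted p up to 0.141. With PK9328 it had -0.19 ± 0.08 (adjusted p = 0.112).

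IFI6, a small interferon-induced membrane protein, read 15.4, 13.9 and 14.7 CPM with DMSO, 19.1, 17.3 and 14.6 with MS172, and 14.7, 13.9 and 15.3 with PK9328. MS172 replicate 3 lay within the range of the other groups. IFI6 was 0.21 ± 0.09 higher with MS172 than with PK9328 (SE, edgeR adjusted p = 0.0417), which was lost in 9 of 20 alternatives, among them without DMSO replicate 1, MS172 replicate 1 or 2, or PK9328 replicate 1 or 2 (adjusted p up to 0.315). Without MS172 replicate 3, with RLE size factors or with fragment length as a covariate, IFI6 passed the threshold with MS172 against DMSO as well. ISG15 read 16.2, 16.9 and 18.1 CPM with DMSO, 17.95, 18.9 and 20.3 with MS172, and 16.4, 16.3 and 18.2 with PK9328. Its groups overlapped, with log2 fold changes of 0.16 ± 0.08 (SE, edgeR adjusted p = 0.104) and -0.01 ± 0.08 (adjusted p = 0.975) against DMSO. Between the compounds ISG15 had 0.16 ± 0.08 (adjusted p = 0.0725), which passed without MS172 replicate 1 or PK9328 replicate 3, and with RLE size factors or length-scaled TPM.

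The other tested inducible genes were not called in any of the 3 comparisons. IFI35 (12.7 CPM with DMSO) and the tether BST2 (18.9 CPM) had intervals within -0.23 to 0.20 in both comparisons against DMSO. The intervals of the scarce genes were wide: OAS1 had 0.29 (95% interval -0.61 to 1.19) with MS172, OAS2 -0.74 (-1.58 to 0.11) with PK9328, and IFI44 -0.71 (-1.34 to -0.07, adjusted p = 0.077) with MS172. The OAS1 interval includes a 2-fold rise and the OAS2 interval a 2-fold fall, so changes of that size were not excluded by these data. IFIH1, the sensor of long double-stranded RNA, had -0.45 (-0.79 to -0.10, adjusted p = 0.0739) with PK9328. The exonuclease ISG20 averaged 4.92 CPM and OAS3 2.096 CPM with DMSO, and their groups overlapped in all comparisons. Without single libraries some of these passed: IFI44 with MS172 without DMSO replicate 3, and, between the compounds, IFIH1 without MS172 replicate 2, MX2 without PK9328 replicate 2, and ISG20 without MS172 replicate 3 or PK9328 replicate 1.

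Among the 6 tested STAT and IRF factors, IRF2 and IRF3 rose with MS172 and IRF9 rose with PK9328, which is 33.3% and 16.7% of the list beside 35.1% and 15.5% of all genes, and the list's median log2 change was 0.03 and 0.09. IRF3 read 92.0, 94.8 and 92.5 CPM with DMSO, 110, 110 and 119 with MS172, and 89.7, 89.3 and 94.97 with PK9328. MS172 lay above all other libraries. IRF3 rose by 0.27 ± 0.04 with MS172 (SE, edgeR adjusted p = 6.78e-06) and was 0.30 ± 0.04 higher with MS172 than with PK9328 (adjusted p = 6.34e-07), and both differences passed the threshold in all 20 alternatives.

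IRF2, which competes with IRF1 for the same sites, read 17.8, 19.4 and 19.4 CPM with DMSO, 21.3, 22.3 and 22.6 with MS172, and 17.6, 18.4 and 19.7 with PK9328. The MS172 libraries were the highest. IRF2 rose by 0.22 ± 0.07 with MS172 (SE, edgeR adjusted p = 0.0123) and was 0.25 ± 0.07 higher than with PK9328 (adjusted p = 0.00383), the first being lost without DMSO replicate 1 and with length-scaled TPM (adjusted p up to 0.179), and the second with fragment length as a covariate (adjusted p = 0.165).

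IRF1, an activator of TAP1 and other class I genes, read 16.2, 13.9 and 16.1 CPM with DMSO, 13.5, 15.2 and 12.3 with MS172, and 16.9, 14.9 and 17.6 with PK9328. All groups overlapped. IRF1 had -0.17 ± 0.09 with MS172 against DMSO (SE, edgeR adjusted p = 0.138), and fell by 0.27 ± 0.09 on the log2 scale relative to PK9328 (adjusted p = 0.013), which was lost without MS172 replicate 3, without PK9328 replicate 3, with length-scaled TPM and with fragment length as a covariate (adjusted p up to 0.542).

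IRF9, the DNA-binding partner of STAT2, read 8.10, 6.66 and 8.03 CPM with DMSO, 7.63, 7.32 and 6.84 with MS172, and 8.92, 9.50 and 10.3 with PK9328. PK9328 was above all other libraries. IRF9 rose by 0.34 ± 0.11 with PK9328 (SE, edgeR adjusted p = 0.0272) and stood at -0.40 ± 0.11 for MS172 relative to PK9328 (adjusted p = 0.00291), which was lost with fragment length as a covariate (log2 -0.198, adjusted p = 0.6). The rise against DMSO was lost in 6 of 20 alternatives, including without DMSO replicate 2, PK9328 replicate 2 or PK9328 replicate 3 and with DESeq2.

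STAT3, the factor of the interleukin-6 family, read 115, 113 and 114 CPM with DMSO, 117, 124 and 124 with MS172, and 122, 121 and 121 with PK9328. Both compounds lay above DMSO without passing the threshold, at 0.09 ± 0.04 (SE, edgeR adjusted p = 0.0667) and 0.08 ± 0.04 (adjusted p = 0.135). STAT3 passed with MS172 without MS172 replicate 1, with RLE size factors, with DESeq2 and with the offset for GC content and length. With that offset it also passed with PK9328 (edgeR adjusted p = 0.0426). STAT2 had intervals of -0.17 to 0.11 and -0.05 to 0.23 against DMSO.

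The receptor chain IFNAR1 read 72.5, 74.6 and 72.5 CPM with DMSO, 77.5, 78.4 and 79.1 with MS172, and 73.7, 71.1 and 70.9 with PK9328. MS172 was above both other groups. IFNAR1 had 0.10 ± 0.04 with MS172 against DMSO (SE, edgeR adjusted p = 0.0704). That difference passed the threshold with RLE size factors and with the offset for GC content and length. Over the alternatives it ranged from -0.111 to 0.136 on the log2 scale. IFNAR1 was 0.12 ± 0.04 higher with MS172 than with PK9328 (edgeR adjusted p = 0.0162). This was lost without PK9328 replicate 2, without PK9328 replicate 3, with length-scaled TPM and with fragment length as a covariate (adjusted p up to 0.704). IFNGR1, JAK1 and TYK2 were not called in any comparison, with fold changes between -0.09 and 0.14 on the log2 scale. With length-scaled TPM, TYK2 (MS172 against DMSO) and JAK1 (between the compounds) passed the threshold with the opposite sign.

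Further genes of the pathway, 125 in 9 lists, were read from the same fit. Unlike the members, they were not followed singly through the alternative fits, so the stability of their calls is not known. This matters most for PK9328 against DMSO, where 2151 genes were called in the main fit and 175 with fragment length as a covariate. None of 9 interferon ligands passed the filter. IFNA1, IFNA2, IFNB1, IFNE, IFNK and IFNG had 0 reads in all 9 libraries, which allows up to 0.107 to 0.125 CPM per library (3 counts, counting error only), and IFNL1, the highest, reached 0.222 CPM. Of 4 tested receptor chains and kinases, 1 rose with MS172, beside 17.9% of all genes higher, and 2 fell with PK9328, beside 7.48% lower. Between the compounds 2 of the 4 differed, beside 47.7% of all genes. IFNGR2 rose with MS172 and fell with PK9328. IFNGR2 read 231, 227 and 240 CPM with DMSO, 277, 264 and 256 with MS172, and 207, 201 and 204 with PK9328, and the groups did not overlap. Its log2 fold changes were 0.19 ± 0.04 (SE, edgeR adjusted p = 0.00016) and -0.19 ± 0.04 (adjusted p = 0.000488). IL10RB fell by 0.17 ± 0.06 on the log2 scale with PK9328 (edgeR adjusted p = 0.0327), and JAK2 differed by -0.56 ± 0.14 between MS172 and PK9328 (adjusted p = 0.00111).

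Of 12 tested feedback inhibitors, SOCS1 and SOCS3 fell and SOCS2 rose with MS172 (3 of 12, beside 35.1% of all genes). SOCS1, which blocks JAK kinases after interferon, read 18.9, 16.9 and 18.2 CPM with DMSO, 7.88, 9.19 and 8.63 with MS172, and 17.1, 14.1 and 15.0 with PK9328. All MS172 libraries were far below the rest, and DMSO and PK9328 overlapped. SOCS1 fell by 1.07 ± 0.09 on the log2 scale with MS172 (SE, edgeR adjusted p = 1.43e-10), larger than the fold change of any tested member in that comparison, had -0.23 ± 0.08 with PK9328 (adjusted p = 0.0614), and fell by 0.84 ± 0.09 with MS172 relative to PK9328 (adjusted p = 9.72e-09). SOCS3 fell by 0.46 ± 0.14 on the log2 scale with MS172 (edgeR adjusted p = 0.0125) from 5.09 CPM ± 0.432 to 3.70 CPM ± 0.207 (SD, n = 3). SOCS2 was scarce, at 0.451 CPM with DMSO and 0.983 CPM with MS172 (log2 1.11 ± 0.37, edgeR adjusted p = 0.0204). Between the compounds 33.3% of the list was called, beside 47.7% of all genes. PIAS1 was among them, with -0.15 ± 0.06 on the log2 scale for MS172 relative to PK9328 (edgeR adjusted p = 0.0389).

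Among the cytokines and receptors that signal through STAT3, 2 of 6 tested rose with PK9328, beside 7.98% of all genes. LIF read 72.2, 74.6 and 75.3 CPM with DMSO, 73.0, 69.5 and 72.8 with MS172, and 87.9, 90.0 and 85.3 with PK9328, so only the PK9328 libraries stood above DMSO. LIF rose by 0.25 ± 0.04 with PK9328 (SE, edgeR adjusted p = 0.000116), and its receptor chain IL6ST by 0.21 ± 0.06 (adjusted p = 0.0123). Between the compounds 3 of the 6, LIF, IL6ST and IL11, were lower with MS172, beside 24.4% of all genes lower. The scarce IL11, at 0.918 CPM with DMSO, had -0.82 ± 0.32 for MS172 relative to PK9328 (edgeR adjusted p = 0.0365). STAT6 was the called gene of 6 other tested STAT and IRF factors with MS172, 16.7% of the list beside 35.1% of all genes. STAT6 fell by 0.15 ± 0.05 on the log2 scale (edgeR adjusted p = 0.0193), beside 17.2% of all genes lower.

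Of 14 tested sensors and adaptors, 1 rose and 5 fell with MS172, beside 17.9% of all genes higher and 17.2% lower. With PK9328, 1 rose and 1 fell, beside 7.98% and 7.48%. In all, 42.9% and 14.3% of the list were called, beside 35.1% and 15.5% of all genes. MAVS, the mitochondrial adaptor of the RNA sensors, fell by 0.18 ± 0.04 on the log2 scale with each compound (SE, edgeR adjusted p = 0.000541 and 0.00114). With MS172, DHX58 (a RIGI relative) fell by 0.40 ± 0.10 on the log2 scale (edgeR adjusted p = 0.00269) and EIF2AK2, the kinase that halts translation on double-stranded RNA, by 0.29 ± 0.06 (adjusted p = 0.000481). TBK1, the kinase that activates IRF3, rose by 0.23 ± 0.06 with MS172 (edgeR adjusted p = 0.00245). Most called genes of the list thus fell with MS172, and the list's median was -0.07 with MS172 and 0.01 with PK9328.

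Of 27 tested other inducible genes, 4 rose and 3 fell with MS172, and 1 rose and 2 fell with PK9328, in all 25.9% and 11.1% of the list beside 35.1% and 15.5% of all genes. WARS1, a tRNA synthetase induced by interferon gamma, rose by 0.40 ± 0.03 with MS172 (SE, edgeR adjusted p = 2.17e-10) and by 0.14 ± 0.03 with PK9328 (adjusted p = 0.00634). TRIM14, an adaptor at MAVS, fell by 0.44 ± 0.08 on the log2 scale with MS172 (edgeR adjusted p = 3.07e-05) and by 0.23 ± 0.07 with PK9328 (adjusted p = 0.0281). LGALS3BP rose by 0.18 ± 0.06 with MS172 (edgeR adjusted p = 0.0184) and fell by 0.34 ± 0.06 on the log2 scale with PK9328 (adjusted p = 0.000204). IFITM2, which blocks viral entry and overlaps IFITM1 in the annotation, rose by 0.26 ± 0.06 with MS172 (edgeR adjusted p = 0.000857). The list's medians were -0.08 and -0.05.

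Of 17 tested other class I genes, 6 rose and 3 fell with MS172, and 2 rose and 1 fell with PK9328, in all 52.9% and 17.6% of the list beside 35.1% and 15.5% of all genes. The list's medians were 0.11 and -0.03. PDIA3, the disulfide isomerase beside tapasin, rose by 0.17 ± 0.04 with MS172 (SE, edgeR adjusted p = 0.00095), fell by 0.19 ± 0.04 on the log2 scale with PK9328 (adjusted p = 0.000799) and differed by 0.36 ± 0.04 between the compounds (adjusted p = 7.59e-09). The chaperone CALR rose by 0.19 ± 0.04 with MS172 (edgeR adjusted p = 0.000465), and PSME2, a proteasome activator subunit, by 0.19 ± 0.05 (adjusted p = 0.00145). The peptide-trimming enzyme ERAP1 fell by 0.29 ± 0.09 on the log2 scale (edgeR adjusted p = 0.00843), RFXAP, a factor at HLA promoters, fell by 0.45 ± 0.15 (adjusted p = 0.0164), and the chaperone CANX had 0.02 (adjusted p = 0.781). CALR and PDIA3 also serve general folding in the endoplasmic reticulum.

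MICA, a stress ligand of the receptor NKG2D, read 6.74, 7.63 and 7.05 CPM with DMSO, 5.83, 4.48 and 5.76 with MS172, and 10.7, 11.1 and 10.2 with PK9328. The groups did not overlap, with PK9328 highest and MS172 lowest. MICA fell by 0.41 ± 0.12 on the log2 scale with MS172 (SE, edgeR adjusted p = 0.00677), rose by 0.58 ± 0.11 with PK9328 (adjusted p = 0.00032), and fell by 0.99 ± 0.11 with MS172 relative to PK9328 (adjusted p = 2.31e-08). Its close relative MICB, added after its values were seen, rose by 0.44 ± 0.11 with MS172 (edgeR adjusted p = 0.0016), and reads of this near-identical pair may be divided between them. Of the 8 class II genes, 4 passed the filter, with HLA-DMA the highest at up to 5.31 CPM, and the smallest unadjusted p of any of them in the 3 comparisons was 0.0908 (edgeR).

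**Figure D4:**
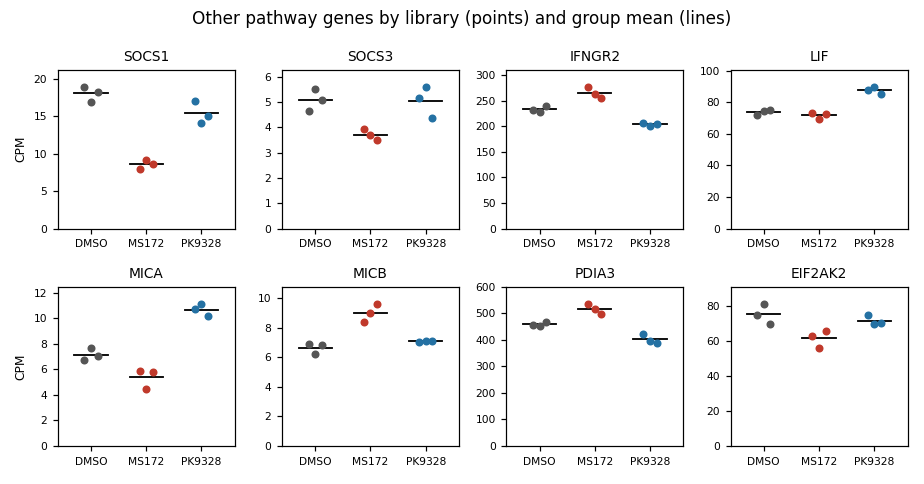
CPM of 8 further pathway genes in each library (points) with the group mean (lines), linear axes from 0. SOCS1 is lowest with MS172 in all 3 libraries (7.88 to 9.19 CPM), and MICA is highest with PK9328 (10.2 to 11.1 CPM).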

How the data were processed

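Per the file headers, the authors deposited for each library a table of transcripts with an estimated count of reads and a TPM value, the latter normalised by the authors to effective length and library total. FastQC 0.11.8 and hg38 are listed in the submitters' processing notes. The quantification program and its index: not given in the sources used here. Of 197653 transcripts, 193348 matched GENCODE 29 by identifier, and the rest held 0.356% to 0.382% of reads. Estimated counts were summed per gene and rounded. All 9 libraries entered a single edgeR 4.0.16 quasi-likelihood fit (R 4.3.3, robust, TMM, filterByExpr, 6 residual degrees of freedom), with Benjamini-Hochberg adjustment over 13914 genes and a threshold of 0.05, and the fit was tested on simulated data. CPM uses TMM-scaled library sizes, intervals are 95% intervals, and gene coordinates follow GENCODE 29 (GRCh38, 1-based).

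The 38 members and all lists were chosen with earlier results of these data known. Named in full were members called in at least 1 comparison, up to 8 per role, plus IRF1, IRF9, STAT3, ISG15, MX1, IFIT2, B2M, HLA-B, TAP1 and NLRC5. From each further list came up to 4 called genes with the smallest p. Other genes are examples chosen after their values were seen. For the members and the counts of calls, the alternatives were DESeq2 1.42.0, limma-voom (limma 3.58.1), RLE size factors, other filters, a replicate block, length-scaled TPM as counts, a fit of the libraries compared, a fragment length covariate, an offset for GC content and length (mgcv 1.9.3) and each library left out. Sequences are from RefSeq on GRCh38.p14.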

Additional observations from a re-analysis of the deposited data

How the results depend on the processing

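For MS172 against DMSO, all 20 alternatives gave 8 to 14 called members (main 11) and 3350 to 5025 called genes (main 4884), within 1.5 times the main counts. For PK9328 against DMSO (main 8 members and 2151 genes), length-scaled TPM gave 4 members and 1080 genes and fragment length as a covariate 1 and 175, and leaving out 1 library gave 4 to 8 members and 1384 to 2215 genes. The low members' counts were 5 without DMSO replicate 3 and 4 without PK9328 replicate 2, and the low gene counts 1384 without DMSO replicate 1 and 1400 without PK9328 replicate 2. For MS172 against PK9328 (main 16 and 6641), the covariate gave 9 and 2474, and leaving out 1 library 12 to 16 members. Fragment length separates the PK9328 libraries from the others, so the covariate and that group overlap in the fit, and the cause of the lost calls was not tested. Of the member fold changes called in the main or the alternative fit, 3 changed sign, all with length-scaled TPM: TYK2 with MS172 against DMSO (0.253, adjusted p = 0.0132), TAP2 with PK9328 against DMSO (0.517, adjusted p = 0.134) and JAK1 between the compounds (-0.231, adjusted p = 0.0154). The cause was not tested. The replicate block gave 10, 7 and 15 members and 4597, 1884 and 6405 genes. The labels do not say whether same-numbered libraries were handled together. Correlations of their deviations from the group means were -0.057 to 0.017, beside -0.049 to 0.056 for differently numbered libraries of different groups. IRF7 and IFI27, with 13 and 10 estimated reads over all libraries, had too few reads for the filter.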
